A study of Mus musculus with 17 samples.

Results

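The genes described here encode the insulin-like growth factor (IGF) binding proteins *Igfbp2* to *Igfbp7*, the ligand *Igf1* and the IGF receptor *Igf1r*. These 8 genes, of 54532 genes listed, were taken by symbol from the expression table of wild-type and *Usb1* knockout mouse embryonic stem cells. They were chosen with measured values of these libraries in view, so their differences are given as a description, with no p-value. All 8 passed the filter on low values that left 21871 genes for the fit (TPM of at least 1 in at least 2 libraries), *Igf1* only through 2 of the wild-type libraries at day 3.

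The cells were of the R1 line. Wild-type and *Usb1*-KO cells were each sampled at day 0, without retinoic acid (RA), and at days 1 and 3 of RA. No library was of cells kept without RA to day 1 or 3. RA, time in culture and any other change of culture therefore cannot be told apart. A response to RA below means the change from day 0. *Usb1* encodes a nuclease that trims the 3' end of U6 small nuclear RNA, and the question of the design was whether it is needed for pluripotency. The wild-type group at day 0 had 2 libraries and each of the other 5 groups had 3, 17 in all. The *Usb1*-KO libraries came from a single line, KO-1, made with CRISPR/Cas9, so its clonal history and the loss of *Usb1* cannot be told apart. The RA dose is not given in the sources used here.

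IGF1 and IGF2 signal through the IGF1 receptor, a tyrosine kinase that works mainly through insulin receptor substrate proteins and PI3-kinase. IGF binding proteins are secreted proteins that hold IGFs with high affinity, carry them and limit their access to the receptor, and several of them also act without IGFs. IGFBP7 binds IGFs with low affinity. The IGF2 receptor has no kinase and clears IGF2. IGF ligands and IGF binding proteins are known as secreted products of differentiating stem cell cultures and of early embryonic tissues.

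The values were TPM (reads corrected for gene length and scaled to the library). Reads on genes, recovered from TPM, ranged from 15404379 to 17300186 over the 17 libraries. *Usb1* itself, which an editing indel need not remove from the RNA, had 38.5 ± 1.99 TPM (SD, n = 2) at day 0 in wild-type cells, against 16.2 ± 1.47 TPM (n = 3) in the knockout. Its log2 difference (knockout minus wild type) was -1.20 at day 0, -1.33 at day 1 and -0.93 at day 3 (limma adjusted p = 3.23e-05, 1.97e-06 and 9.37e-05). Wild-type replicate 1 at day 0 stood apart from the other libraries, with 239 genes of a single read against 1224 to 2467 elsewhere. Where leaving it out ended a call or moved a printed difference by over 1.5 times, the value without it is given. Without it the wild-type group at day 0 is a single library, assumed to vary like the other groups. All 10 listed pluripotency genes were at 1 TPM or more in each library at day 0. Their summed level was 9967 TPM in each wild-type library and 9965 to 10810 TPM in the *Usb1*-KO libraries. At day 3 it was 1074 to 1303 TPM in wild-type cells, against 1464 to 1819 TPM in the knockout. *Dppa5a*, at 809.6 and 1047 TPM on average, made up most of the sum at day 3 and overlapped between the genotypes. Of the 10 genes, 7 were higher in every knockout library at day 3, while *Klf4* (58.0 and 32.5 TPM) and *Tdh* (20.9 and 9.06 TPM) were lower.

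**Figure D1:**
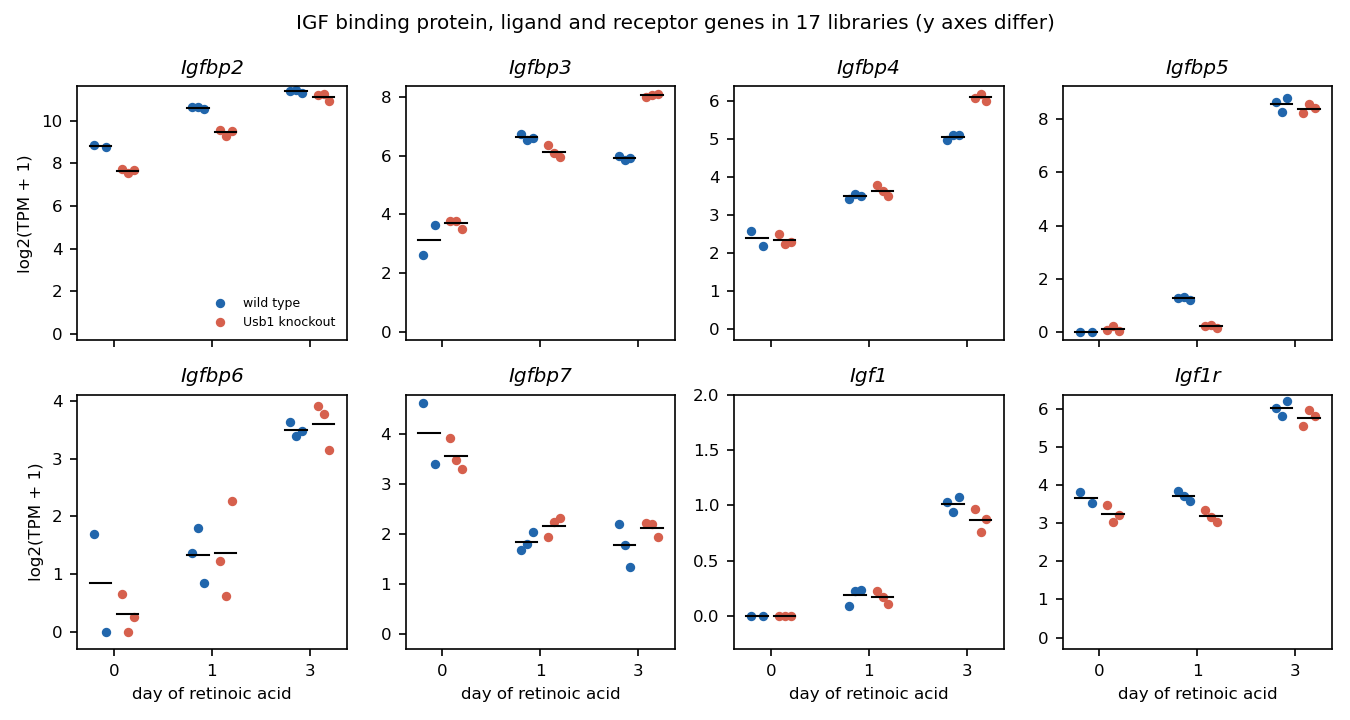
Level of the 8 genes in each of the 17 libraries, on the log2(TPM + 1) scale (y axis, which differs between panels), by day of RA (x axis). Each point is 1 library, blue for wild type and red for *Usb1* knockout, and the black bars are group means. *Igfbp5* goes from about 0 at day 0 to a mean of 8.55 in wild-type and 8.38 in knockout cells at day 3, while the knockout points of *Igfbp3* at day 3 lie above all others in that panel.

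*Igf1*, on chromosome 10 (87858265 to 87937042, plus strand, GRCm38), encodes the circulating ligand IGF1 and was close to the limit of detection. No read was counted in any of the 5 libraries at day 0, which allows up to 0.0634 to 0.0684 TPM in each library (3 reads, counting error only). This limit assumes that low counts were kept. Genes of a single read were few in wild-type replicate 1 (239), where the limit may not hold, and numbered 1352 in replicate 2. At day 1 the level of *Igf1* was 0.0666, 0.172 and 0.178 TPM in wild-type cells, and in the knockout 0.171, 0.123 and 0.0775 TPM, on 3 to 8 reads. At day 3 the wild-type libraries had 1.05, 0.918 and 1.10 TPM and the knockout libraries 0.958, 0.690 and 0.838 TPM, on 30 to 49 reads. The genotypes overlapped on days 1 and 3, and every library at day 3 lay above every library at day 1. Against the 3-read limit, averaged over the knockout libraries of day 0, the mean at day 3 was at least 12.8-fold higher in *Usb1*-KO cells. In wild-type cells it was at least 14.9-fold higher, against the limit of replicate 2 alone.

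The receptor gene *Igf1r*, on chromosome 7 (67952827 to 68233668, plus strand, 21 blocks of exons), was at the same level at day 0 and day 1 and several times higher at day 3. In wild-type cells it had 13.0 and 10.4 TPM at day 0, 13.4, 12.1 and 10.9 TPM at day 1, and 63.3, 55.1 and 72.9 TPM at day 3. The *Usb1*-KO cells had 10.1, 7.13 and 8.27 TPM at day 0, 9.21, 7.94 and 7.16 TPM at day 1, and 45.3, 61.1 and 54.8 TPM at day 3. On each of days 0 and 1 all *Usb1*-KO libraries lay below all wild-type libraries, and at day 3 the genotypes overlapped. The log2 differences between the genotypes were -0.42 ± 0.17 (SE) at day 0, -0.53 ± 0.15 at day 1 and -0.24 ± 0.15 at day 3. Without wild-type replicate 1 the difference at day 0 was -0.28. From day 0 to day 3 the log2 difference was 2.35 ± 0.17 in wild-type and 2.53 ± 0.15 in *Usb1*-KO cells.

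The insulin receptor, *Insr*, can pair with the IGF1 receptor in hybrid receptors. The ratio of *Igf1r* to *Insr* TPM was 2.43 ± 0.24 (SD, n = 2) in wild-type cells at day 0, 1.09 ± 0.0718 (n = 3) at day 1 and 4.64 ± 0.245 at day 3. In *Usb1*-KO cells it was 1.69 ± 0.181, 1.01 ± 0.041 and 3.82 ± 0.43 (n = 3 each). The ratio was therefore lowest at day 1 and highest at day 3 in each genotype, and at each day lower on average in *Usb1*-KO cells.

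*Igfbp2* was the most abundant of the binding protein genes in every library. It lies on chromosome 1 (72824503 to 72852474, plus strand), and its product is the main IGF binding protein of many fetal tissues. In wild-type cells it had 470.0 and 443.5 TPM at day 0, 1588, 1622 and 1501 TPM at day 1, and 2704, 2781 and 2519 TPM at day 3. The *Usb1*-KO cells had 212.4, 187.5 and 209.4 TPM at day 0, 767.6, 625.2 and 736.7 TPM at day 1, and 2358, 2457 and 1967 TPM at day 3. The 6 groups did not overlap at all: at each day every *Usb1*-KO library was lower than every wild-type library, and in each genotype every later day was higher than the one before. The knockout mean was 0.445 of the wild-type mean at day 0, 0.452 at day 1 and 0.848 at day 3. On the log2 scale the differences were -1.17 ± 0.10, -1.15 ± 0.09 and -0.24 ± 0.09 (SE).

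The response of *Igfbp2* to RA, measured against day 0 of the same genotype, was a log2 difference of 1.78 ± 0.10 in wild-type and 1.80 ± 0.09 in *Usb1*-KO cells at day 1. At day 3 it was 2.54 ± 0.10 in wild-type and 3.47 ± 0.09 in *Usb1*-KO cells. The difference between these responses was 0.92 ± 0.14, short of 2-fold, and 1.02 without knockout replicate 3 at day 3. The change from day 1 to day 3 was 1.70-fold in wild-type and 3.19-fold in *Usb1*-KO cells as a ratio of mean TPM.

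*Igfbp3* was the gene with the largest difference between genotypes at day 3. It lies on chromosome 11 (7206086 to 7213923, minus strand) and encodes the main carrier of IGFs in blood. In wild-type cells it had 5.15 and 11.4 TPM at day 0, 106.8, 91.2 and 96.4 TPM at day 1, and 62.6, 56.9 and 60.2 TPM at day 3. In the knockout it had 12.8, 12.8 and 10.4 TPM at day 0, 80.5, 66.4 and 61.0 TPM at day 1, and 254.7, 268.9 and 273.9 TPM at day 3. Wild-type cells thus had their highest level at day 1, with no overlap with day 3, whereas each *Usb1*-KO library at day 3 was above each library of any other group. The ratio of mean TPM between knockout and wild type was 0.706 at day 1 and 4.44 at day 3.

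The log2 difference of *Igfbp3* between the genotypes was 0.57 ± 0.21 (SE) at day 0, -0.50 ± 0.19 at day 1 and 2.13 ± 0.19 at day 3. The sign at day 0 rested on the wild-type libraries, which were 5.15 and 11.4 TPM, and was 0.06 ± 0.14 without wild-type replicate 1 and 1.07 without replicate 2. The difference between the genotypes in the response to RA was -1.07 ± 0.28 at day 1 and 1.56 ± 0.28 at day 3. Without wild-type replicate 1 these were -0.56 and 2.07, so that library moved their size and not their direction.

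*Igfbp4* lies on chromosome 11 too (99041244 to 99054392, plus strand), and its product inhibits IGF action and is cleaved by the protease PAPP-A. In wild-type cells it had 5.03 and 3.58 TPM at day 0, 9.80, 10.8 and 10.3 TPM at day 1, and 30.7, 33.4 and 33.5 TPM at day 3. The knockout libraries had 4.66, 3.75 and 3.93 TPM at day 0, 12.8, 11.5 and 10.3 TPM at day 1, and 67.7, 72.8 and 63.8 TPM at day 3. The genotypes overlapped at days 0 and 1 and were apart at day 3, where the lowest *Usb1*-KO library was above the highest wild-type library. The mean at day 3 was 2.09 times higher in *Usb1*-KO cells, a log2 difference of 1.04 ± 0.11 (SE), against -0.04 ± 0.13 at day 0 and 0.14 ± 0.11 at day 1. Without wild-type replicate 1 the difference at day 0 was 0.16. The difference at day 3 lay close to the 2-fold threshold and was 0.99 without knockout replicate 2 at day 3. The difference in response at day 3 was 1.08 ± 0.17, and 0.89 without wild-type replicate 1 at day 0.

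*Igfbp5* had the widest range of the 8 genes. It lies next to *Igfbp2* on chromosome 1 (72857932 to 72874884, minus strand), tail to tail with a gap of 5457 bases, and its product binds extracellular matrix. No read was counted in the wild-type libraries at day 0, and 1 to 5 reads were counted in the *Usb1*-KO libraries. These were at or near the 3-read limit of 0.113 TPM in wild-type replicate 2. At day 1 the wild-type libraries had 1.46, 1.49 and 1.32 TPM (36 to 42 reads) and the knockout libraries 0.177, 0.203 and 0.128 TPM (4 to 6 reads). At day 3 the wild-type libraries had 391.7, 304.5 and 441.5 TPM, the knockout libraries 295.2, 373.3 and 335.4 TPM. The genotypes were thus apart at day 1, by 8.42-fold in mean TPM at a low level, and overlapped at day 3.

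The mean of *Igfbp5* in wild-type cells at day 3 was at least 3362-fold above the limit that 0 reads allow in replicate 2 at day 0, if low counts were kept there. On the log2(TPM + 1) scale, which understates changes of low values, the difference between the genotypes was -1.05 ± 0.13 (SE) at day 1 and -0.17 ± 0.13 at day 3. The difference between the genotypes in the response at day 1 was -1.18 ± 0.20, and the same without wild-type replicate 1 at day 0. The neighbouring *Igfbp2* was at 443.5 TPM or more in the wild-type libraries in which *Igfbp5* had no read.

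*Igfbp6*, on chromosome 15 (102144362 to 102149511, plus strand), encodes a binding protein with a preference for IGF2 and was measured on few reads. Before day 3 it had at most 22 reads in a library, with 12 and 0 reads in the wild-type libraries and 3, 0 and 1 reads in the *Usb1*-KO libraries at day 0. At day 3 the wild-type libraries had 11.5, 9.50 and 10.2 TPM, the knockout libraries 14.1, 12.7 and 7.84 TPM, on 41 to 81 reads. All 6 libraries at day 3 were above all others, and the genotypes overlapped on each day. The log2 difference from day 0 to day 3 was 2.66 ± 0.50 (SE) in wild-type and 3.31 ± 0.45 in *Usb1*-KO cells. Without wild-type replicate 1 the former was 3.51.

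*Igfbp7*, on chromosome 5 (77349240 to 77408041, minus strand), was the only one of the 8 genes with a lower level under RA in these libraries. In wild-type cells it had 23.6 and 9.53 TPM at day 0, 2.18, 2.46 and 3.10 TPM at day 1, and 3.58, 2.45 and 1.53 TPM at day 3. The knockout libraries had 14.2, 10.2 and 8.80 TPM at day 0, 2.81, 3.69 and 3.97 TPM at day 1, and 3.68, 3.58 and 2.81 TPM at day 3. Every library at day 0 was above every library at days 1 and 3, and the genotypes overlapped at each of days 0, 1 and 3. The log2 difference from day 0 to day 1 was -2.17 ± 0.32 (SE) in wild-type cells, -1.56 without wild-type replicate 1, and -1.41 ± 0.29 in *Usb1*-KO cells. *Igfbp7* shares 85 exonic bases with *Polr2b* on the opposite strand, a gene of up to 219.9 TPM. The libraries do not keep strand, so reads in those bases cannot be told apart.

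**Figure D2:**
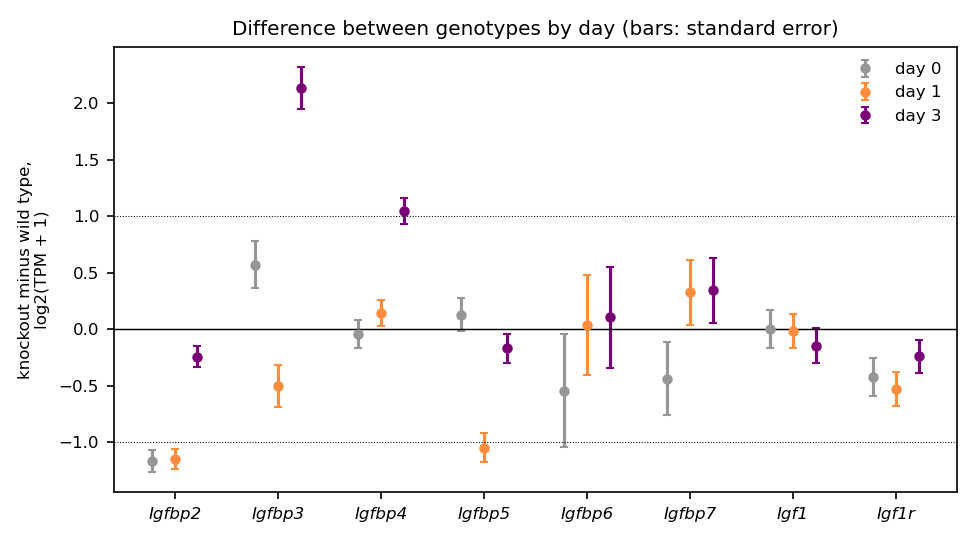
Difference between *Usb1* knockout and wild-type cells (y axis, log2(TPM + 1), with standard errors of the fit) for each gene (x axis) at day 0 (grey), day 1 (orange) and day 3 (purple). Dotted lines mark 2-fold. *Igfbp2* lies at -1.17 and -1.15 at days 0 and 1 and near 0 at day 3, whereas *Igfbp3* and *Igfbp4* lie at 2.13 and 1.04 at day 3.

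A gene was called when its limma adjusted p was under 0.05 and its change at least 2-fold. Since the genes were selected on these same values, the counts that follow describe the selection and are set beside the share of all 21871 tested genes without being read against it. Between the genotypes, 1 of the 8 genes was called at day 0 (*Igfbp2*, lower in the knockout), where 3.05% of all genes were. At day 1 2 were called (*Igfbp2* and *Igfbp5*, both lower), with 2.22% of all genes. At day 3 2 were called (*Igfbp3* and *Igfbp4*, both higher), with 1.29% of all genes.

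From day 0 to day 1, 5 of the 8 were called in wild-type cells (*Igfbp2*, *Igfbp3*, *Igfbp4* and *Igfbp5* higher, *Igfbp7* lower), with 13.9% of all genes, and 4 in *Usb1*-KO cells (without *Igfbp5*), with 6.95%. From day 0 to day 3, *Igfbp2* to *Igfbp7* and *Igf1r* were called in each genotype, with 25.8% of all genes in wild-type and 21.9% in *Usb1*-KO cells. *Igfbp7* was the lower gene each time. *Igf1* is left out of this count, since it passed the filter only through wild-type libraries at day 3. Its log2 differences were 1.02 in wild-type and 0.87 in *Usb1*-KO cells, to either side of 2-fold, and its call depended on the processing in each genotype (0.73 in wild-type cells with quantile normalization, 3.21 in the knockout with a pseudocount of 0.1). The difference between the genotypes in the response was called for 1 gene at day 1 (*Igfbp5*), with 0.86% of all genes, and for 2 genes at day 3 (*Igfbp3* and *Igfbp4*), with 2.42%. The responses share the day 0 libraries. Over all tested genes the median log2 difference was 0.18 from day 0 to day 1 and 0.10 from day 0 to day 3 in wild-type cells, and -0.13 between the genotypes at day 1. It was -0.12 for the difference in response at day 1 and between 0 and 0.03 in the other comparisons. Relative to the median gene, the difference of *Igfbp2* between the genotypes at day 1 is thus smaller, and it was -0.93 with libraries scaled to an equal median, where that of *Igfbp5* was -0.84.

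The make-up of the binding protein transcripts was compared as the share of each gene in their summed TPM. The sum over *Igfbp2* to *Igfbp7* was 487.0 ± 26.9 TPM (SD, n = 2) in wild-type cells at day 0, 1684 ± 63.0 (n = 3) at day 1 and 3153 ± 75.1 at day 3. In *Usb1*-KO cells it was 230.6 ± 15.3, 796.2 ± 80.7 and 2944 ± 272.1 TPM (n = 3 each). The knockout sum was thus below the wild-type sum by more than the spread at days 0 and 1, while at day 3 the ranges overlapped (3066 to 3204 and 2651 to 3188 TPM).

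*Igfbp2* made up 93.8% ± 1.33 of this sum in wild-type cells at day 0, 93.2% ± 0.452 at day 1 and 84.6% ± 2.55 at day 3. In *Usb1*-KO cells its share was 88.1% ± 1.67, 89.1% ± 1.03 and 76.7% ± 2.31. *Igfbp5* came to 12.1% ± 2.43 at day 3 in wild-type and 11.4% ± 1.42 in *Usb1*-KO cells, a share that did not separate them. *Igfbp3* did: at day 3 it made up 1.90% ± 0.101 in wild-type and 9.09% ± 1.08 in *Usb1*-KO cells. *Igfbp4* had 1.03% ± 0.0678 and 2.32% ± 0.0784 at day 3. The share of *Igfbp3* was higher in every *Usb1*-KO library than in every wild-type library at each day, also at day 1 (5.83% ± 0.503 against 8.72% ± 1.08), where its own TPM was lower.

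**Figure D3:**
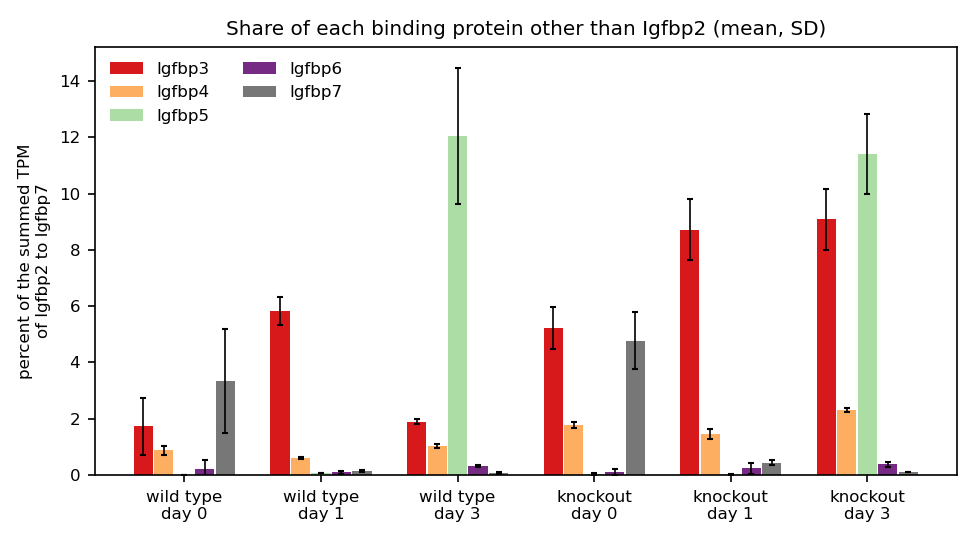
Share of *Igfbp3* to *Igfbp7* in the summed TPM of *Igfbp2* to *Igfbp7* (y axis, percent, bars are means and lines are SD over 2 or 3 libraries) in each group (x axis). The rest of each sum is *Igfbp2*. *Igfbp5* appears at day 3 in both genotypes (12.1% and 11.4%), and *Igfbp3* is larger in the knockout at day 3 (9.09% against 1.90%).

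The 250 bases before the start of transcription of each gene were read from RefSeq (GRCm38.p6), in which all 8 genes matched, *Igfbp2* with a pair of starts. They are shown for the 4 binding protein genes that were called between the genotypes and for the receptor, since RA acts through nuclear receptors that bind repeats of short hexamers. Capitals mark matches to the hexamer AGGTCA and its variant GGGTCA, to AGTTCA and its variant GGTTCA, or to the core of a TATA box, TATAAA, on either strand. The windows are chr1:72824230-72824479 (plus strand, the start nearer to the lower coordinate), chr11:7213924-7214173 (minus), chr11:99040994-99041243 (plus), chr1:72874866-72875115 (minus) and chr7:67952007-67952256 (plus), each written 5′ to 3′ along its gene.
Igfbp2: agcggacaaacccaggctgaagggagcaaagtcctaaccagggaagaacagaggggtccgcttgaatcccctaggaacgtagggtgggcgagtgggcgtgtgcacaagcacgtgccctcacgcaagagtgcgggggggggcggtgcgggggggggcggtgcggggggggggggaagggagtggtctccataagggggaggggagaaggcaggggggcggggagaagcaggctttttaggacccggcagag
Igfbp3: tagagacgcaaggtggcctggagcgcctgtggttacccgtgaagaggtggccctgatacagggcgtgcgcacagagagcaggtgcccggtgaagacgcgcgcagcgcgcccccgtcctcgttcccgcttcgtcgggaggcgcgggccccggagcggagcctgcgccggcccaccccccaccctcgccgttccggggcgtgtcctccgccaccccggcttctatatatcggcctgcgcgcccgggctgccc
Igfbp4: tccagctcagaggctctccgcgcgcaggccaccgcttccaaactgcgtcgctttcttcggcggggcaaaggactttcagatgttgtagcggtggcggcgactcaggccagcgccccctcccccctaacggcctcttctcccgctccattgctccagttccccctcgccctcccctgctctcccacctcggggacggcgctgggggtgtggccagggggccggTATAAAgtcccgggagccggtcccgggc
Igfbp5: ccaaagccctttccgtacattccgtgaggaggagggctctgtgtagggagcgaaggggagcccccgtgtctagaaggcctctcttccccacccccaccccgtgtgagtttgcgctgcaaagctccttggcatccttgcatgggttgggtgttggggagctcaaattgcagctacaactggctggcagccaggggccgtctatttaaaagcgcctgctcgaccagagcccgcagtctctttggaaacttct
Igf1r: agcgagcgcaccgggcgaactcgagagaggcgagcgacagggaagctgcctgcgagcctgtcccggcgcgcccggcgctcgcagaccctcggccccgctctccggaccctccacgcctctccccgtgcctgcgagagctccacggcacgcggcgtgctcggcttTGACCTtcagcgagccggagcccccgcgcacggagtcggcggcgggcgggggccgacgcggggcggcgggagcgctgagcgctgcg

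No window of *Igfbp2*, *Igfbp3*, *Igfbp4*, *Igfbp5* or *Igfbp7* held any of the 4 hexamers. *Igf1r* held AGGTCA on the opposite strand 81 to 86 bases before its start, *Igf1* held AGGTCA 156 to 161 bases before its start, and *Igfbp6* held GGGTCA 72 to 77 bases before its start. That is 3 of 8 genes, beside 41.8% of 27025 genes with a promoter in the same table. Direct repeats of these hexamers with 1, 2 or 5 bases between them, the spacings known for retinoic acid receptors, were in none of the 8 genes and in 0.196%, 0.204% and 0.104% of all genes. TATAAA stood 23 to 28 bases before the start of *Igfbp4* and, on the opposite strand, at 143 to 148 bases in *Igfbp6*, and was in 14.3% of all genes. These are matches of letters in a short window and say nothing of binding or of sites elsewhere.

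The other genes of the pathway were followed as lists, of which 50 of 58 listed genes passed the filter. Of the ligands and receptors, *Igf2*, the imprinted fetal ligand, had at most 0.316 TPM in each library at days 0 and 1 and was the ligand with the higher level at day 3. At day 3 its mean was 18.4 ± 4.51 TPM (SD) in wild-type cells, against 43.9 ± 11.2 TPM in the knockout (n = 3 each), with no overlap. It rose in both genotypes from day 0 to day 3, by a log2 difference of 4.05 and 5.36 (limma adjusted p = 2.57e-09 and 3.34e-11), and was higher in *Usb1*-KO cells at day 3 by 1.20 ± 0.21 (adjusted p = 0.00293). The latter call was lost in 2 of 26 alternative fits, with a pseudocount of 0.1 (adjusted p = 0.262) and with the day 3 libraries alone (adjusted p = 0.0912).

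*Igf2r*, the receptor that clears IGF2, rose from 70.2 ± 4.85 to 178.4 ± 29.0 TPM in wild-type and from 63.3 ± 5.62 to 164.3 ± 24.3 TPM in *Usb1*-KO cells between day 0 and day 3 (adjusted p = 5.36e-06 and 1.22e-06). *Insr* rose from 4.81 ± 0.257 to 13.7 ± 1.22 TPM in wild-type and from 5.04 ± 0.591 to 14.3 ± 3.08 TPM in *Usb1*-KO cells (adjusted p = 8.92e-06 and 3.01e-06). Neither passed the test between the genotypes at day 3, with log2 differences of -0.12 and 0.04 (adjusted p = 0.76 and 0.959). *Igfbp1*, the remaining classical binding protein and the neighbour of *Igfbp3* at 3539 bases, had at most 0.266 TPM and was not tested.

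Among the other genes listed beside the binding proteins, *Igfbpl1* and *Igfals* fell to day 3 in both genotypes. *Igfals*, whose product stabilises the complex of IGF with IGFBP3 in blood, went from 10.4 ± 0.12 to 2.68 ± 0.966 TPM in wild-type and from 10.2 ± 1.76 to 1.54 ± 0.781 TPM in *Usb1*-KO cells (adjusted p = 6.81e-05 and 1.41e-06). *Igfbpl1* went from 12.9 ± 3.52 to 0.475 ± 0.126 TPM and from 6.58 ± 0.713 to 1.42 ± 0.0993 TPM. Its fall was smaller in *Usb1*-KO cells, by a log2 difference of 1.58 ± 0.27 (limma adjusted p = 0.00402), a call kept in all 26 alternative fits, with 1.32 (adjusted p = 0.0212) without wild-type replicate 1 at day 0.

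The counts of each list from day 0 to day 3 stand beside the 25.8% and 21.9% of all tested genes called in wild-type and *Usb1*-KO cells. Of the 6 tested genes for IGFBP proteases and their inhibitors, 2 rose and 1 fell from day 0 to day 3 in each genotype. *Adamts1*, a metalloprotease, rose by 2.38 and 2.07 on the log2 scale in wild-type and *Usb1*-KO cells, *Ctsd* (cathepsin D) rose by 1.47 and 1.46, and *Stc2*, whose product inhibits PAPP-A, fell by 1.38 and 1.86. *Htra1*, a secreted serine protease, was the gene of this list that differed between the genotypes. At day 3 its mean was 109.9 ± 12.2 TPM in wild-type cells, against 38.5 ± 0.43 TPM in the knockout, a log2 difference of -1.48 ± 0.13 (adjusted p = 6.14e-06), kept in all 26 alternative fits.

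Of the 6 tested relatives that carry an IGFBP-type domain, 3 rose from day 0 to day 3 in each genotype and none fell. *Cyr61*, a matricellular protein, rose by 4.93 and 4.07 on the log2 scale in wild-type and *Usb1*-KO cells, and *Ctgf* by 1.97 and 1.54. *Wisp1* rose in *Usb1*-KO cells by 1.03, and had a log2 difference of 0.97 in wild-type cells, under 2-fold. *Kazald1* rose in wild-type cells by 2.00 (adjusted p = 2.56e-05) from 0 and 0.537 TPM at day 0, while *Usb1*-KO cells had 2.97 ± 1.12 TPM already at day 0 and 3.07 ± 0.567 TPM at day 3. Its level at day 0 was higher in *Usb1*-KO cells by 1.63 ± 0.28 (adjusted p = 0.00238), a call lost with the day 0 libraries alone (adjusted p = 0.13). Without wild-type replicate 1 at day 0, the library with no read of *Kazald1*, its rise in wild-type cells was 1.69 (adjusted p = 0.000761) and its difference at day 0 was 1.32 (adjusted p = 0.0348).

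Of the 12 genes for receptor docking and adaptors, 4 rose and 2 fell in wild-type cells from day 0 to day 3, and 6 rose and 2 fell in *Usb1*-KO cells. The docking proteins *Irs1* and *Irs2* rose by 3.02 and 3.25 in wild-type and by 2.79 and 3.05 in *Usb1*-KO cells. *Socs3* and *Socs2*, inhibitors of cytokine signalling that are known targets of the leukaemia inhibitory factor and growth hormone pathways, fell. *Socs3* fell from 240.4 ± 13.0 to 22.2 ± 0.446 TPM in wild-type and from 244.2 ± 10.8 to 11.8 ± 0.354 TPM in *Usb1*-KO cells by day 1 (adjusted p = 2.04e-11 and 5.91e-13). None of these 12 genes was called between the genotypes at any day, which does not mean equal levels. At day 0 the adaptor *Grb10* averaged 66.4 TPM in wild-type cells, against 133.4 TPM in the knockout, with no overlap and close to the 2-fold threshold. *Gab1* was apart in the other direction at day 0, with 396.2 and 275.0 TPM.

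Of the 18 genes of the PI3-kinase, AKT and FOXO branch, 4 rose and none fell from day 0 to day 3 in each genotype. Among them were *Pik3r1* and *Pik3r3*, regulatory subunits of PI3-kinase, and the kinase *Akt1*, with log2 differences of 3.02, 2.19 and 2.00 in wild-type and 2.56, 2.16 and 1.80 in *Usb1*-KO cells. *Pik3r3* differed at day 1, with 19.3 ± 0.292 TPM in wild-type cells, against 6.20 ± 0.39 TPM in the knockout (log2 difference -1.50 ± 0.11, adjusted p = 5.89e-07). Its response at day 1 was smaller in *Usb1*-KO cells by 1.32 on the log2 scale (difference -1.32 ± 0.16, adjusted p = 0.000932), and both calls were kept in all 26 alternative fits. The 3 IGF2 mRNA-binding protein genes, *Igf2bp1* to *Igf2bp3*, were called in none of the 9 comparisons. *Igf2bp2* was nevertheless higher in every knockout library at each day. At day 3 it averaged 16.1 TPM in wild-type cells, against 32.2 TPM in the knockout, close to the 2-fold threshold. *Igf2bp1* and *Igf2bp3* overlapped between the genotypes at day 3.

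**Figure D4:**
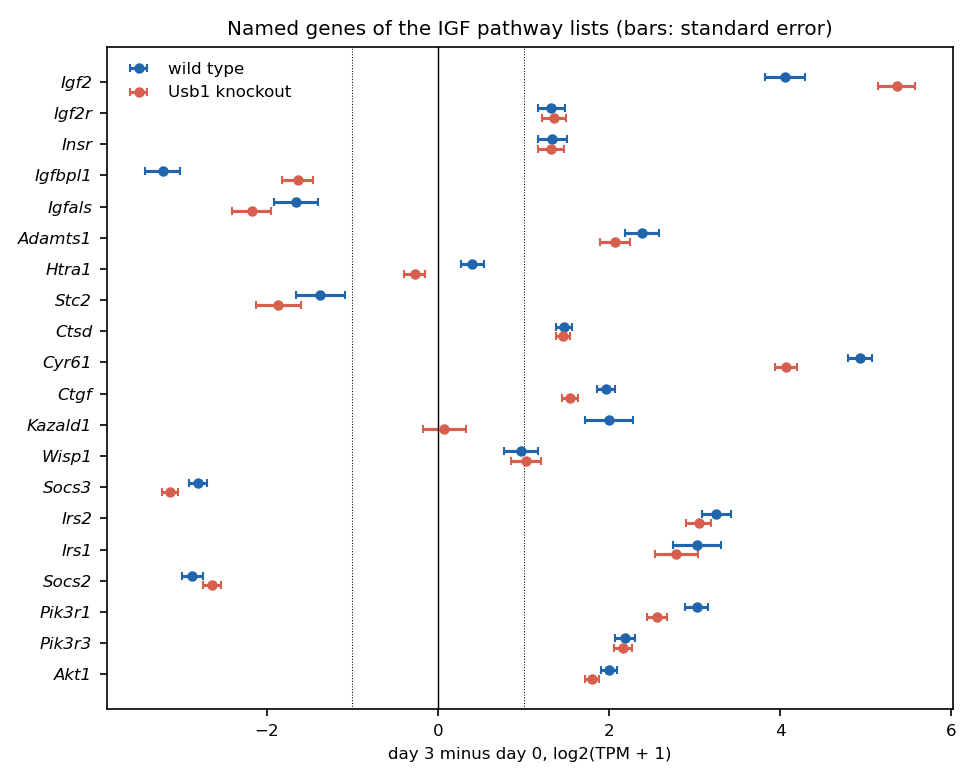
Log2 difference between day 3 and day 0 (x axis, log2(TPM + 1), with standard errors of the fit) in wild-type (blue) and *Usb1* knockout cells (red). The genes (y axis) are those named by rule from the pathway lists. Dotted lines mark 2-fold. *Igf2* (4.05 and 5.36), *Igfbpl1* (-3.22 and -1.64) and *Kazald1* (2.00 in wild type) are the genes whose points lie farthest apart between the genotypes.

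Over all lists together, 1 of the 50 tested pathway genes was called between the genotypes at day 0, 1 at day 1 and 2 at day 3, or 2%, 2% and 4%, beside 3.05%, 2.22% and 1.29% of all tested genes. In wild-type cells 16 rose and 5 fell from day 0 to day 3, and in *Usb1*-KO cells 18 rose and 5 fell, or 42% and 46% of the tested pathway genes, beside 25.8% and 21.9% of all tested genes. The median log2 difference of the pathway genes was 0.37 in wild-type and 0.60 in *Usb1*-KO cells, and that of all tested genes 0.10 and 0.03.

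For each of the 8 genes, the protein-coding genes with the most similar level over the 17 libraries were found by Pearson's r of log2(TPM + 1). These values rest on 6 groups that share day and genotype and are a description. *Igfbp2* was closest to *Pnrc1* (r = 0.993), *Oprl1* (0.992) and *Tgfbr3* (0.988), which like it were lower in *Usb1*-KO cells at days 0 and 1, as with 3.69 and 1.33 TPM of *Tgfbr3* at day 0. *Igfbp3* was closest to *Marcks* (r = 0.971), the homeobox gene *Dlx3* (0.969) and *Slc7a8* (0.969). *Igfbp4* was closest to *Sox9* (r = 0.988), a transcription factor of cartilage and neural crest, to *Col2a1* (0.981), the cartilage collagen, and to *Prtg* (0.979). *Sox9* at day 3 averaged 8.43 TPM in wild-type cells, against 18.9 TPM in the knockout, and *Col2a1* 15.8 and 32.4 TPM.

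*Igfbp5* was closest to *Zim1*, *Robo2* and *Flt1* (r = 0.997 each), and *Igf1* to *Eps8l2* (r = 0.988), *Rbbp7* (0.987) and *Dach1* (0.987). *Igf1r* was closest to *Flnc* and *Cadm1* (r = 0.994 each) and to the laminin gene *Lamb2* (r = 0.994), which at day 3 averaged 297.8 TPM in wild-type cells, against 257.3 TPM in the knockout. *Igfbp6* was closest to *Lxn* (r = 0.965), *B4gat1* (0.959) and *Rcn2* (0.957), and *Igfbp7* to *Insc* (r = 0.948), *Unc93a2* (0.942) and *Tgm3* (0.940). Next to *Igfbp4* on the chromosome lie *Top2a* and *Tns4*, whose log2 differences between the genotypes at day 3 were 0.15 (limma adjusted p = 0.31) and -0.77 (adjusted p = 0.025, under 2-fold).

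IGF binding proteins are also made by other cell types, and markers of these moved with day and genotype. The summed level of 11 extraembryonic endoderm markers at day 0 was 480.3 to 499.1 TPM in wild-type cells, against 308.8 to 354.3 TPM in the knockout, and 5810 to 6581 and 2739 to 3305 TPM at day 3, with all 11 at 1 TPM or more at day 3. The 10 fibroblast markers summed to 4.79 to 6.41 TPM in wild-type cells at day 0, with 7 of them at 0 (*Dcn*, *Col3a1*, *Twist2*, *Lum*, *Prrx1*, *Postn* and *Fap*), and to 6.96 to 9.01 TPM in *Usb1*-KO cells. At day 3 they summed to 45.1 to 54.4 TPM in wild-type cells, against 72.0 to 81.5 TPM in the knockout, with 5 of 10 at 1 TPM or more. The 5 smooth muscle markers came to 174.4 to 184.8 and 196.4 to 226.1 TPM at day 3, with *Acta2* at 0 at day 0. At day 3 *Acta2* and *Des* were higher in every knockout library, *Tagln* was lower (7.54 and 5.56 TPM on average) and 2 overlapped.

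The 7 neural markers at day 0 summed to 111.6 to 124.8 TPM in wild-type cells, against 135.9 to 147.4 TPM in the knockout. At day 3 they summed to 103.2 to 113.4 TPM in wild-type cells, against 138.8 to 159.4 TPM in the knockout, with 4 of 7 at 1 TPM or more. From day 0 to day 3 in wild-type cells *Nes* rose from 6.58 to 87.3 TPM, while *Tubb3* fell from 99.9 to 14.9 TPM and *Sox1* from 9.65 to 1.56 TPM. At day 3, 4 of the 7 were higher in every knockout library and 3 overlapped. The 5 endothelial markers fell from 44.55 to 44.9 TPM in wild-type and 54.9 to 66.1 TPM in knockout libraries at day 0. At day 3 they summed to 9.14 to 11.2 and 16.3 to 18.1 TPM, with *Emcn* at 0. *Pecam1* made up most of the sum at day 0 (38.4 and 53.7 TPM on average) and was at 1.61 and 4.83 TPM at day 3. Of these 5 at day 3, 3 were higher in every knockout library and *Kdr* was lower (1.57 and 0.74 TPM on average). At day 0 the 7 RA response genes summed to 34.7 to 39.5 TPM in wild-type cells and 18.3 to 20.0 TPM in the knockout, with *Hoxb1* at 0. At day 1 they summed to 1205 to 1262 and 639.9 to 680.6 TPM. *Stra8*, at 868.9 and 396.3 TPM on average, carried most of that difference. Of the 7, 5 were lower in every knockout library at day 1, while *Cyp26a1* (111.2 and 110.3 TPM) and *Dhrs3* overlapped. At day 3, 4 were lower in every knockout library, *Crabp2* was higher (85.5 and 139.7 TPM) and 2 overlapped. Gene by gene at day 3, where *Igfbp3* and *Igfbp4* were higher in *Usb1*-KO cells, 10 of the 11 endoderm markers were lower in every knockout library than in every wild-type library, and *Pdgfra* overlapped (18.2 and 18.6 TPM on average). Of the 10 fibroblast markers, 5 were higher in every knockout library (*Col1a1*, *Col1a2*, *Col3a1*, *Thy1* and *Postn*) and 5 overlapped, among them *Dcn* (15.5 and 14.2 TPM). *Postn* rested on few reads, 1 to 5 in wild-type and 6 to 16 in knockout libraries. *Col1a1*, at 24.1 and 39.2 TPM, carried most of the difference in the sum of the 10. How many of all tested genes were apart in this way was not counted. These counts, and that of the pluripotency genes above, therefore describe the listed genes only and cannot be set against a share of all genes. The part of these cells in the results was not tested. In bulk samples, fewer cells of a type and less RNA per cell cannot be told apart.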

How the data were processed

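RNA of 17 libraries (NEBNext Ultra kit, which does not keep strand) was sequenced by the authors, who deposited TPM calculated from gene length and the reads counted on each gene. The submitters' processing notes name GRCm38.p6, HISAT2 2.1.0 and StringTie 1.3.6. DESeq2 was the authors' tool for differential expression, and since TPM is not a count it was not used here.

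Reads were recovered from TPM and GENCODE M21 exon lengths, and came out whole (within 0.01) for 95.9% to 96.6% of the values above 0, for 54495 of 54532 identifiers. limma 3.58.1 in R 4.3.3 was fitted on log2(TPM + 1) with 6 group means and a variance trend, over genes at TPM of at least 1 in at least 2 libraries, with Benjamini-Hochberg adjustment within each of 9 comparisons. A gene was called at adjusted p under 0.05 and at least 2-fold. The fit was tested on simulated data.

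The genes, lists and comparisons were chosen with earlier results of these data known. Genes named from the pathway lists are the up to 4 per list with the largest difference among those called in any comparison, with *Igf2*, *Igf2r*, *Insr* and *Igfbp1* in any case. *Grb10*, *Gab1* and the IGF2 mRNA-binding protein genes are named outside this rule. A gene that this rule selects is not reported here by name, and stays in the counts. The 3 most similar protein-coding genes are named for each gene. P-values measure the spread between libraries described as biological replicates. Python 3.11.15 and matplotlib 3.10.9 were used for tables and figures. Alternatives are given in the closing section.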

Additional observations from a re-analysis of the deposited data

Results flagged for a closer look

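For 8 results, the difference between the genotypes in the response to RA was itself past the threshold, under limma's test of that difference. All are log2 differences, *Usb1* knockout minus wild type, each against its own day 0. The first 3 concern genes selected on these values, so they are a description. At day 1 the value of *Igfbp5* was -1.18, on 4 to 6 reads in the knockout libraries. At day 3 the value of *Igfbp3* was 1.56 and that of *Igfbp4* was 1.08.

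The others are pathway genes. At day 1 *Kazald1* had -1.75 (limma adjusted p = 0.0297), a call lost in 10 of 26 alternative fits, among them the fit without wild-type replicate 1 at day 0 (-1.44, adjusted p = 0.121). At day 1 *Pik3r3* had -1.32 (adjusted p = 0.000932), kept in all 26. At day 3 *Igf2* had 1.302 (adjusted p = 0.0285), lost in 10 of 26 alternative fits with values from 1.10 to 1.62, *Igfbpl1* had 1.58 (adjusted p = 0.00402), kept in all 26, and *Kazald1* had -1.93 (adjusted p = 0.00894), kept in the 25 fits that tested it. Without wild-type replicate 1 at day 0 these were 1.32 (adjusted p = 0.0212) and -1.62 (adjusted p = 0.0455). The *Kazald1* values rest on wild-type libraries at 0 and 0.537 TPM at day 0.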

How the results depend on the processing

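The alternatives were 9 changes of processing and leaving out each of the 17 libraries, 26 in all. Of 1773 differences of the 8 genes under them, 1653 stayed within the spread between libraries, 120 moved further, and no called one changed direction. The cause of the changes below was not tested. The 5 calls of the 8 genes from day 0 to day 1 in wild-type cells became 3 with quantile normalization. The 2 calls between the genotypes at day 1 became 1 with quantile normalization and 0 with equal medians, where *Igfbp2* was at -0.93 and *Igfbp5* at -0.84. The difference in response had 2 calls in place of 1 at day 1 with a filter at TPM 5 (*Igfbp3* added), and 1 in place of 2 at day 3 with equal medians (*Igfbp4* at 0.99). The response of *Igfbp5* at day 1 was not called with quantile normalization (-0.86) or limma's voom on recovered reads (-5.38, on 0 to 6 reads in the libraries of days 0 and 1 other than wild-type day 1), and that of *Igfbp3* was called in its place (-1.06 and -1.14).

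Of the pathway genes, 1 was called between the genotypes at day 0, and 3 with a pseudocount of 0.1 and with equal medians, 2 with quantile normalization, 4 with voom, and 0 with a filter at TPM 5 and with the libraries of the comparison alone. With adjusted p alone the count was 8 there, 25 at day 1 (1 with the fold), 10 at day 3 (2), 28 and 38 from day 0 to days 1 and 3 in wild-type cells (10 and 21), 20 and 40 in *Usb1*-KO cells (5 and 23), and 4 and 7 for the difference in response (2 and 3). Voom gave 2 at day 1 and 8 from day 0 to day 1 in *Usb1*-KO cells. The libraries of the comparison alone gave 1 at day 3. For the response at day 1, no filter, a filter at TPM 5 and those libraries alone gave 1 each.

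Without 1 library in turn, the 8 genes had 1 to 3 calls between the genotypes at day 0, 2 at day 1 and 1 to 2 at day 3, 4 to 5 and 7 to 8 calls in wild-type cells at days 1 and 3 (the eighth being *Igf1*), 4 to 5 and 7 in *Usb1*-KO cells, and 1 to 3 calls for each difference in response. The 3 calls at day 0 came without wild-type replicate 2, which leaves the library that stands apart. The pathway genes had 1 to 4, 1 and 2 calls between the genotypes, 8 to 15 and 21 to 22 in wild-type cells, 5 to 6 and 21 to 23 in *Usb1*-KO cells, and 1 to 3 and 2 to 4 for the response. *Igf1* could not be tested without wild-type replicate 1 or 3 at day 3.

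Over all genes, the calls between the genotypes at day 0 numbered 668, 73 with those libraries alone, 1281 with voom, and 379 and 2249 without wild-type replicate 1 and 2. For the response these gave 129 and 1793 at day 1 (188) and 353 and 1937 at day 3 (529, or 258 with those libraries alone). At day 1 it was also 101 and 114 without wild-type replicate 1 and 3 at day 1, 120 without knockout replicate 3 at day 0, and 124, 125 and 119 without knockout replicate 1, 2 and 3 at day 1. Voom gave 2317 from day 0 to day 1 in *Usb1*-KO cells (1519). Adjusted p alone gave 2598, 3789 and 1645 between the genotypes, 8311, 11396, 6066 and 11258 from day 0, and 488 and 1345 for the response. With quantile normalization and equal medians the share of calls that were higher went from 20.8% to 43.8% and 51.7% between the genotypes at day 1, from 72% to 51.4% and 55% (day 1) and 62.4% to 51.9% and 49.8% (day 3) in wild-type cells, and from 21.8% to 50.3% and 35.2% for the response at day 1. With equal medians it went from 52.4% to 70.3% at day 0, from 58.7% and 63.2% to 47.7% and 42% in *Usb1*-KO cells, and from 48.4% to 33.7% for the response at day 3.

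Replicate numbers are shared between the groups, with no stated pairing. Deviations of same-numbered libraries correlated by -0.13 to 0.124, with 1 of 40 pairs over 0.1. With a replicate block, no call of the 8 genes changed, and the difference of *Igfbp2* at day 0 was -1.14. Read number limits *Igf1*, *Igfbp6* and *Igfbp7*, and *Igfbp5* before day 3.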
